A study of Mus musculus with 4 samples.

Results

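The genes described here are 10 negative feedback regulators of the ERK pathway, namely the phosphatase genes Dusp1, Dusp2, Dusp4, Dusp5, Dusp6 and Dusp10, the Sprouty genes Spry1 and Spry2, and the Sprouty-related genes Spred1 and Spred2. They were chosen by name, and all 10 were found among the 34315 features of the deposited expression table. RNA came from bone marrow haematopoietic stem cells (HSCs) of C57BL/6 mice, sorted by the dye efflux and surface phenotype SP-KSL-CD150+. The wild-type group has 4 libraries that the labels call technical replicates of a single biological replicate, whereas the series design speaks of duplicates, so what a difference between the wild-type library pairs below stands for is not known. The other group, labelled Dnmt3a-KO (lacking the de novo DNA methyltransferase Dnmt3a), enters through the authors' mean count over 4 libraries and their deposited comparison. The sources used here do not give the age of the mice, how many were pooled or how Dnmt3a was removed.

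Growth factor and cytokine receptors on HSCs, Kit among them, switch on Ras, which starts the kinase relay from Raf through MEK to ERK. ERK then induces genes that switch it off again. Dual-specificity phosphatases (Dusp proteins) remove phosphates from MAP kinases, and each has its own preference among ERK, p38 and JNK. Sprouty and Spred proteins act higher up, between the receptors and Raf, and Spred1 brings the Ras inactivator neurofibromin to the membrane. Because these brakes are induced by the pathway they restrain, their transcripts are widely used as a readout of ERK activity, though other signals induce several of them too.

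The wild-type libraries held 40709659 to 47408552 counts, and values below are counts divided by size factors. Over features with at least 20 reads, the median chi-square per degree of freedom was 0.763 between libraries 1 and 2 and 0.682 between libraries 3 and 4, but at least 11.99 between a library of one pair and a library of the other. The medians within pairs lie somewhat above what counting noise alone gives for this median, and far below those between pairs. Each pair was therefore averaged and counted as 1 sample, and no p-value was computed between the pairs, which are not labelled groups. Sampling error within a pair was small for these genes: the largest difference was 1.18-fold, for Dusp10 between libraries 1 and 2. Dnmt3a itself stood at 8257, 8599, 5419 and 5226 normalised counts in wild-type libraries 1 to 4 and at 8453 in the arm labelled knockout. Which exons were removed is not known here, so a total over all exons is no check of that label. The spread between knockout libraries is not analysed here.

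Start-site sequences are shown for Dusp1 and Dusp5, which differed most between the wild-type pairs, and for Dusp6, which had the highest count, not divided by length, in the arm labelled knockout. RefSeq promoter windows (GRCm38.p6, 250 bases before to 50 after the start) matched 9 of the 10 genes, and Dusp4 had no entry. The stretch from 250 to 51 bases before the start is printed 5′ to 3′ on the gene's own strand. Capitals mark matches, on either strand, to the cAMP response element (CRE, TGACGTCA), to its core TGACG, and to the serum response element core known as the CArG box.
Dusp1: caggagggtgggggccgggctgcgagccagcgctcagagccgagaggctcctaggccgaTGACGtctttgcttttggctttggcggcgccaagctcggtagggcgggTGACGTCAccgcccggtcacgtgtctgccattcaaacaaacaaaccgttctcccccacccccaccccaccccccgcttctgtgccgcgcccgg
Dusp5: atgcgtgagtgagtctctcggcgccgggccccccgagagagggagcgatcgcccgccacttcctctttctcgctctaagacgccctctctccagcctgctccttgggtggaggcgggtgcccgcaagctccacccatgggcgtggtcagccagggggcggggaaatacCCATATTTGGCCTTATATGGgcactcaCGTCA
Dusp6: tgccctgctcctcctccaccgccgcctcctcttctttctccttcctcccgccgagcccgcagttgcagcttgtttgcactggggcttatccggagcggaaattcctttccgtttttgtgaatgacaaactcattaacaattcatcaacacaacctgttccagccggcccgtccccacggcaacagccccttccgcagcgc
These stretches lie at chr17:26508523-26508722 on the minus strand for Dusp1, chr19:53528895-53529094 on the plus strand for Dusp5 and chr10:99262981-99263180 on the plus strand for Dusp6. The Dusp1 stretch holds a full CRE at positions -143 to -136 and a separate core site at -191 to -187. In Dusp5, a pair of CArG boxes, the motif bound by serum response factor, lie directly next to each other at -82 to -73 and -72 to -63, followed by a CRE core at -55 to -51. Bases just after the RefSeq start were found in GENCODE vM21 transcripts of the gene for 7 of the 9 genes. They were not found for Dusp5 and Spred1, so positions there rest on the RefSeq start alone. None of the letters searched occurs in the Dusp6 window. Of all 32851 promoter windows, 1.79% hold the full CRE, 1.63% a CArG box and 20.8% a CRE core, the last count including cores within full sites. Cores outside a full CRE were also found in Dusp2 at 6 to 10 bases after the start and in Spred2 at -51 to -47. No window of these 9 genes holds the AP-1 motif TGANTCA, present in 7.81% of all windows, or the ETS motif CCGGAAG, present in 8.86%. All 9 stretches before the start were rich in CpG, with 12 to 31 CpG dinucleotides in 250 bases against a median of 6 over all windows. A match is a description of letters only.

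**Figure D1:**
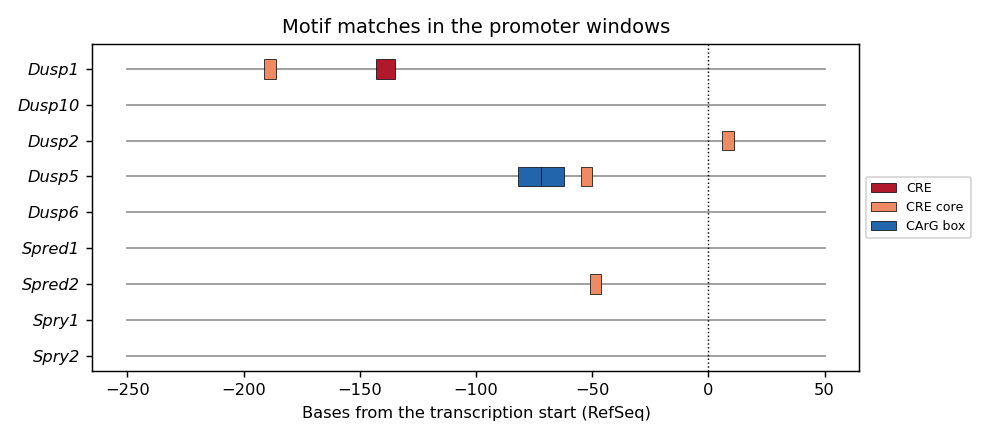
Positions of motif matches in the promoter windows of 9 ERK feedback genes, with bases from the RefSeq transcription start on the x axis and 1 line per gene. Boxes mark a full CRE, CRE cores and CArG boxes. Dusp1 carries the CRE and Dusp5 the adjoining CArG boxes, while 5 of the 9 windows have no match.

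Across the genes, the arm labelled knockout tended towards higher levels. The authors' deposited table calls Dusp5 and Dusp6 higher (2 of 10) and no member lower at an adjusted p under 0.05, where 3.15% of all 21778 tested features are called higher and 3.7% lower. By the log2 fold changes of the authors' deposited table, 8 of the 10 genes were higher in that arm, with a median of 0.93 (range -1.64 to 3.11) against -0.10 over all tested features. The mean of the arm labelled knockout lay above both wild-type pairs for 8 genes, and below both for none, against 40.9% and 43% of the 17692 features whose mean over both arms reached 10. It lay at least 2-fold above both for 4 genes, Dusp2, Dusp5, Dusp6 and Spry2, against 12.9% of those features. For Dusp1 and Spry1 it lay between the means of the pairs, as it did for 16% of features. For Spry1 it was within the range of libraries 1 and 2. Scaling by total counts instead lowered the median ratio over all features from -0.04 to -0.38. Then 7 of the genes lay above both pairs, with 27.8% of features doing so. The knockout scale is 0.34 lower in log2 units under that scaling. This puts Spry1, only 0.017 above libraries 1 and 2 before, below both pairs.

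**Figure D2:**
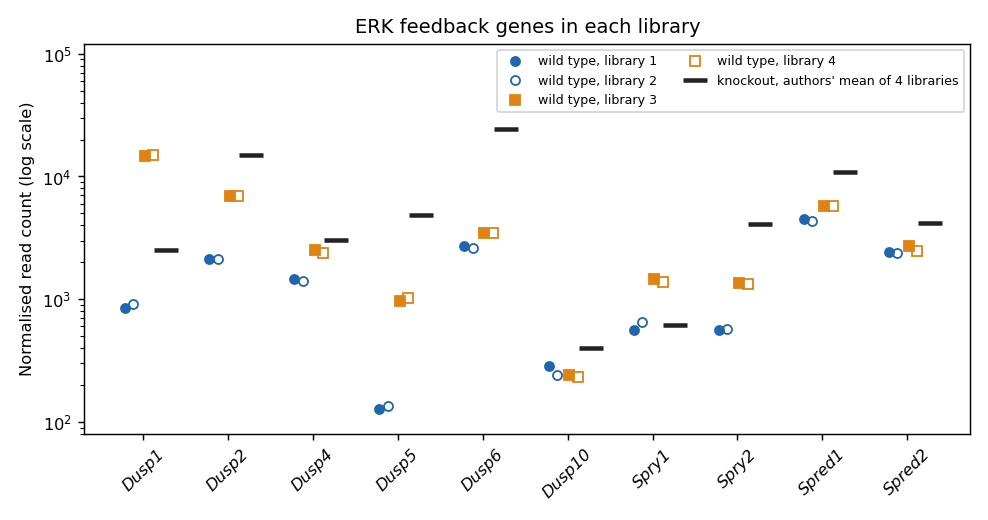
Normalised read counts on a log axis for the 10 ERK feedback genes. Circles are wild-type libraries 1 and 2, squares are wild-type libraries 3 and 4, and the bar is the authors' mean of the arm labelled knockout, placed on the same scale. The bar lies above all 4 wild-type points for 8 genes and between the pairs for Dusp1. For Spry1 it lies between libraries 1 and 2, at 614 against 558 and 657.

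Dusp5 was the only nuclear phosphatase among the members called in the authors' deposited table. Dusp5, which is specific for ERK and holds it in the nucleus (chromosome 19, 53603808 to 53615812, mm9), had 128 and 136 normalised counts in the first wild-type pair (libraries 1 and 2) and 963 and 1026 in the second (libraries 3 and 4). The mean of the arm labelled knockout was 4880. It thus lay above every wild-type library, and the authors' deposited table gives an 8.63-fold rise over wild type (adjusted p 0.0109). The size of that rise depends on the wild-type pair taken as reference, at 37.1-fold over libraries 1 and 2 and 4.91-fold over libraries 3 and 4. The wild-type pairs differed 7.56-fold from each other, so this gene separated both the pairs and the arms.

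Dusp6 was the member with the highest count in the arm labelled knockout and differed little within wild type. This cytoplasmic phosphatase, which acts almost only on ERK (chromosome 10, 98725865 to 98730123, mm9), stood at 2716 and 2612 normalised counts in the first pair and at 3455 and 3471 in the second. The arm labelled knockout had a mean of 24578, far above all 4. Dusp6 rose 8.02-fold by the authors' deposited table (adjusted p 0.0142). Against the separate pairs the ratio was 9.23 and 7.10, a narrower span than for Dusp5. The antisense feature HAG_004217 overlaps Dusp6 and went from 1244 and 1798 in the pairs to 11991, and reads made without strand information cannot be told apart between them.

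Dusp1 showed the largest gap between wild-type pairs and no call between the arms. Its product dephosphorylates p38 and JNK as well as ERK and is a classic immediate early protein (chromosome 17, 26642536 to 26645417, mm9). Normalised counts were 846 and 921 in the first pair against 14811 and 14981 in the second, and the mean of the arm labelled knockout was 2530.1. The pairs did not overlap and stood 16.9-fold apart, a log2 difference of 4.08 with an exact binomial 95% interval of 4.004 to 4.147 that covers counting error only. Dusp1 ranked number 23 by this difference among 13100 features with a wild-type mean of at least 100. The authors' deposited table, with a log2 fold change of -1.64 (adjusted p 0.291), sets the knockout mean against both pairs together. Taken singly, the ratio was 2.86-fold above libraries 1 and 2 and 5.89-fold below libraries 3 and 4, so its direction turns with the pair.

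Dusp2, a nuclear phosphatase first known from activated lymphocytes (chromosome 2, 127161895 to 127164113, mm9), had 2125 and 2132 normalised counts in the first pair, 6878 and 6912 in the second, and a mean of 14984 in the arm labelled knockout. The wild-type pairs did not overlap, while the arm labelled knockout enters as a mean whose spread is not analysed here. The knockout mean was 7.04-fold above the first pair and 2.17-fold above the second, and the authors' deposited table lists it at 1.73 on the log2 scale (adjusted p 0.253). Dusp2 also shares its position with an antisense feature, HAG_023837, at 1769 and 4729 in the pairs and 12347 in the arm labelled knockout.

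The remaining phosphatases moved less. Dusp4, a nuclear phosphatase of ERK and a close relative of Dusp1 (chromosome 8, 35870664 to 35882948, mm9), stood at 1453, 1419, 2531 and 2380.4 normalised counts in libraries 1 to 4 and at 3024 in the arm labelled knockout. The authors' deposited table lists it at 0.63 on the log2 scale (adjusted p 0.836), and the knockout mean was only 1.23-fold above libraries 3 and 4. With total-count scaling Dusp4 was the gene that no longer lay above both pairs. Dusp10, which prefers p38 and JNK over ERK (chromosome 1, 185858340 to 185899515, mm9), stood at 284, 241, 240.3 and 232 in libraries 1 to 4 and at 400.2 in the arm labelled knockout. It was the only member not higher in libraries 3 and 4, where its log2 difference of -0.15 had a counting interval of -0.33 to 0.03, and it was not called (authors' deposited table, log2 fold change 0.68, adjusted p 0.816).

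The Sprouty genes, inhibitors of receptor signalling to Ras, shared their wild-type pattern but not their position in the arm labelled knockout. Spry2 (chromosome 14, 106291164 to 106296036, mm9) had 558 and 567 normalised counts in the first pair, 1359 and 1342 in the second, and a mean of 4105 in the arm labelled knockout. Spry1 (chromosome 3, 37538872 to 37543521, mm9) had 558 and 657 in the first pair, 1447 and 1385 in the second, and a mean of 614 in the arm labelled knockout. Libraries 3 and 4 were therefore higher 2.40-fold for Spry2 and 2.33-fold for Spry1. The knockout mean of Spry2 exceeded every wild-type library, and the authors' deposited table lists it at 2.10 on the log2 scale (adjusted p 0.124). For Spry1 it equalled 1.01 times libraries 1 and 2 and was 2.30-fold below libraries 3 and 4, and the authors' deposited table gives -0.72 (adjusted p 0.799). Whether the response of Spry1 and Spry2 differs was not tested.

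Spred1 and Spred2, which block activation of Raf by Ras, differed little between the wild-type pairs, by 1.30-fold and 1.08-fold. Spred1 (chromosome 2, 116947186 to 117005072, mm9) stood at 4461, 4369, 5741 and 5708 normalised counts in libraries 1 to 4 and at 10915 in the arm labelled knockout. Spred2 (chromosome 11, 19824445 to 19922600, mm9) stood at 2426, 2385, 2702 and 2489.7 in libraries 1 to 4 and at 4207 in the arm labelled knockout. The knockout means lay above all wild-type libraries for both, 1.91-fold and 1.62-fold above the higher pair. The authors' deposited table calls neither, listing them at 1.11 (adjusted p 0.580) and 0.75 (adjusted p 0.783) on the log2 scale.

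**Figure D3:**
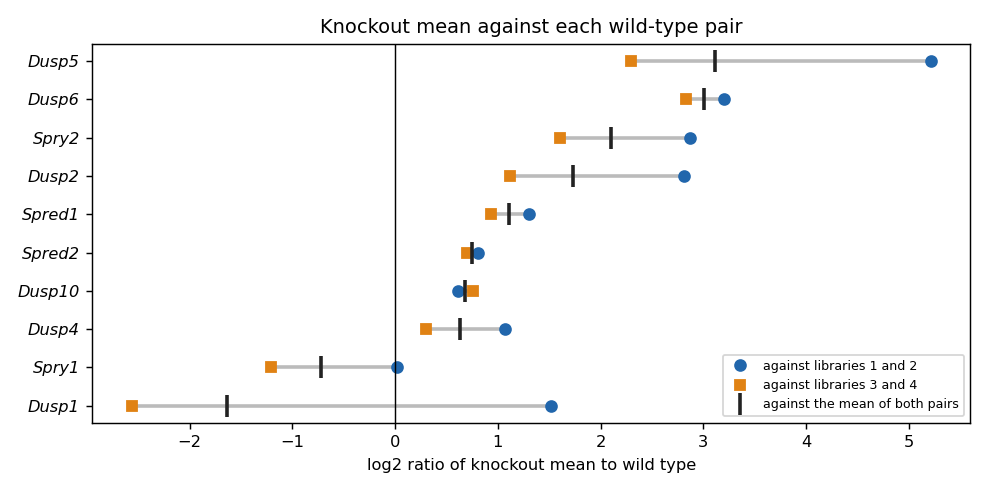
Log2 ratio of the knockout mean to wild type for each gene, against libraries 1 and 2 (circles), libraries 3 and 4 (squares) and the mean of both pairs (ticks), with grey lines joining the pairs. Dusp1 spans zero, from -2.56 to 1.52, and Dusp6 stays between 2.83 and 3.21.

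Within wild type, 5 of the 10 genes were at least 2-fold higher in libraries 3 and 4 than in libraries 1 and 2, and none was 2-fold lower. Those were Dusp1, Dusp2, Dusp5, Spry1 and Spry2. Over the 17692 features, 3.52% were that much higher and 9.77% that much lower. The mean of the second pair was the higher one for 9 genes, against 51.8% of features. For the same 9 genes both libraries of the second pair exceeded both of the first. That share was not counted over all features, so nothing particular to these genes is read from it. The median log2 difference of the members was 1.00 against 0.02 over all features. The list for ERK-responsive transcription, which holds transcription factors as well as target genes, moved alongside only in part. Of its 21 genes, 10 were at least 2-fold higher in libraries 3 and 4 and 0 at least 2-fold lower. Among the rest, the largest differences were Mcl1, 1.68-fold higher there, and Elk4, 1.60-fold lower. Myc and Ccnd1 were each 1.17-fold and Etv5 1.13-fold higher there, and Etv4 was 1.55-fold lower. Of the 10, Fos stood at 857 and 50132 normalised counts in the pairs and Egr1 at 2142 and 70981. Neutrophil markers moved the opposite way, all 7 at least 2-fold lower, with their summed share of counts at 0.112% to 0.114% in libraries 1 and 2 and 0.0222% to 0.0224% in libraries 3 and 4. Mast cell and basophil markers moved with the feedback genes for 2 of 4, Prss34 from 29.0 to 455 and Mcpt8 from 38.4 to 233 normalised counts, in libraries 3 and 4. Of the 4 lymphoid markers with a mean of at least 10, 1 was at least 2-fold higher there (Il7r, 26.3 and 109) and 2 at least 2-fold lower. No HSC, erythroid, megakaryocyte or stromal marker listed differed 2-fold. As background, the L of KSL stands for lineage-negative, a gate meant to remove mature neutrophils. The part of these markers in the differences of the feedback genes was not tested. In bulk RNA, fewer cells of a type and less RNA per cell cannot be told apart.

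Divided by exon length, the wild-type order ran from Dusp1, at 4071 normalised counts per kb, through Dusp2 at 2795, Spred1 at 1696, Dusp6 at 1096, Spred2 at 873, Dusp4 at 803, Dusp5 at 489, Spry2 at 459 and Spry1 at 407, to Dusp10 at 92.0. The ranges over the 4 libraries overlapped for 7 of the 9 neighbours in that order. The exceptions were Spred1 above Dusp6 and Spry1 above Dusp10. Much of the order came from the second pair: Dusp1 was the highest member in libraries 3 and 4 but number 6 in libraries 1 and 2, where Spred1 was the highest. In the arm labelled knockout the order per kb began with Dusp2 at 9284, Dusp6 at 8797 and Dusp5 at 4240, and Dusp5 had been number 9 in libraries 1 and 2. Dusp10 was the lowest member in both pairs and in the arm labelled knockout, at percentile 30.0 of all features with a mean of at least 10.

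**Figure D4:**
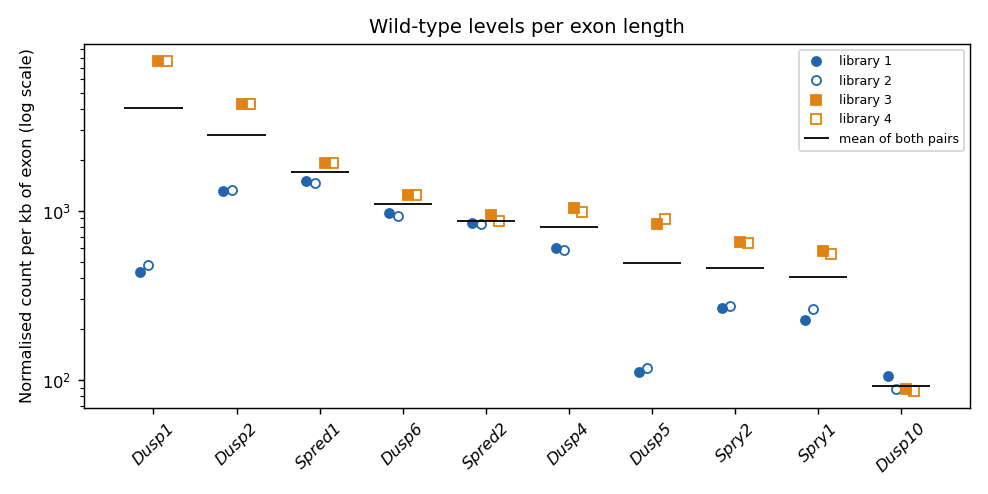
Normalised counts per kb of exon on a log axis in wild-type libraries 1 to 4, ordered by the mean of both pairs (horizontal line). Dusp1 ranges from 437 to 7730 per kb, whereas Spred2 stays between 832 and 943.

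Other genes of the pathway were taken from 5 lists arranged by role. The authors' deposited table tests 83 such genes, of which 9 were called higher and 3 lower, beside 6.84% called among all tested features. Other MAP kinase phosphatases and Ras brakes had 3 called higher and 0 lower of 18, with a median log2 fold change of 0.82. Errfi1, an inhibitor of the epidermal growth factor receptor family, rose 41.95-fold (adjusted p 6.90e-06) by the authors' deposited table, going from 103 and 156 normalised counts in the pairs to 5480. Dusp8, a JNK and p38 phosphatase, rose 42.04-fold (adjusted p 1.91e-05), from 5.27 and 4.76 to 252, and Dusp14 11.4-fold (adjusted p 0.0106), from 3.68 and 0.950 to 42.7, both folds being those of the authors' deposited table. The last pair of genes was near silent in wild type. Dusp16, at 2.47 (adjusted p 0.0555), and Spry4, a further Sprouty gene, at 2.45 (adjusted p 0.0584), were not called in the authors' deposited table. Spred3 stood apart in wild type, at 1209 and 388 in the pairs, lower in libraries 3 and 4.

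Of the signalling chain that these brakes restrain, 1 gene was called, beside 6.84% of all tested features, and nothing is read from so small a count. The authors' deposited table, which gives adjusted p-values only, calls none of 9 receptors upstream of Ras and none of 24 Ras-ERK cascade genes at 0.05, with median log2 fold changes of -0.43 and 0.24. On the log2 scale of the authors' deposited table, Kit, the stem cell factor receptor, was at -0.43 (adjusted p 0.915) and Igf1r at 0.39 (adjusted p 0.928). The adaptor Grb2 was at -0.56 (adjusted p 0.867) and the phosphatase Ptpn11 at 0.47 (adjusted p 0.901) in the authors' deposited table. Of 11 p38 and JNK cascade genes, Map2k3, a kinase that activates p38, rose 6.47-fold (adjusted p 0.0315) by the authors' deposited table. Its normalised counts were 3063 and 3607 in the pairs and 21579 in the arm labelled knockout.

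Calls among ERK-responsive transcription genes went in both directions, with 5 of 21 called higher and 3 lower in the authors' deposited table. Among all tested features, 3.15% were called higher and 3.7% lower. The median log2 fold change of the list was 0.64. The receptor Epha2 rose 16.9-fold (adjusted p 0.000632), Egr3 11.2-fold (0.00377), Fosl1 9.75-fold (0.00687), the ETS factor Elk4 8.90-fold (0.00966) and Phlda1 7.33-fold (0.0205) in that list of the authors' deposited table. Epha4 fell 17.6-fold (adjusted p 0.000801), Myc 8.08-fold (0.0139) and Fos 6.10-fold (0.0390) in the authors' deposited table. The knockout mean of Fos, at 4187, lay between the wild-type pairs, as that of Dusp1 did. Egr3 stood at 5.26 and 526 in the pairs and at 2994 in the arm labelled knockout, in the same order as Dusp5. Fos, Fosl1 and Egr3 each overlap another feature, so their counts carry the strand limit given for Dusp6.

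Some markers of differentiated cells also moved between the arms. By the authors' deposited table, markers fell for 5 of 6 erythroid, 3 of 5 megakaryocyte, 2 of 5 lymphoid, 4 of 4 mast cell and basophil and 1 of 4 stromal and endothelial genes (Cxcl12), while none of 8 HSC markers and none of 7 neutrophil markers was called. Among all tested features, 3.7% were called lower and 3.15% higher, and nothing is read from counts as small as 1 of 4. The erythroid share of counts was 0.0113% to 0.0162% over the wild-type libraries and 0.000810% in the arm labelled knockout. Of these marker genes, Kit and Epor are among those that also stand on the receptor list. Il7r and Cd3e had no reads in the knockout mean. The part of these shifts in the values of the feedback genes was not tested.

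The genes whose levels ran most like a member's were found by the distance between centred log2 values over 3 points (both pairs and the knockout mean) among 10681 features with a symbol. For Dusp1 they were Egr1 (distance 0.72), Ier2 (1.24) and Rhob (1.24). For Dusp5 they were Fn1 (0.43), Cdkn1a (0.62) and Socs3 (0.64), and for Dusp2 Rgs1 (0.12), Ccr2 (0.22) and Rnf128 (0.25). Dusp6 ran closest to Kif5c (0.02), Ifngr1 (0.02) and Bcar3 (0.03), Spry2 to Igf2 (0.10), Btg1 (0.14) and Fam46c (0.15), and Spry1 to Ptprk (0.08), Cyp26b1 (0.08) and Acpp (0.10). Ifngr1, a chain of the interferon-gamma receptor, went from 3837 and 5054 normalised counts in the pairs to 35072, close to the proportions of Dusp6. Dusp4 ran closest to Itgb3 (0.01), Ppp1r3d (0.01) and Rpl21 (0.04), and Dusp10 to Atxn7l3 (0.006), Cnot6 (0.007) and Zfp687 (0.008). For Spred1 the nearest were Golph3 (0.01), Tor1aip1 (0.02) and Creb3 (0.02), and for Spred2 Npc1 (0.003), Polr2a (0.008) and Spryd4 (0.008). A likeness over 3 points is a description only.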

How the data were processed

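Poly(A)-selected RNA of sorted HSCs was prepared with a TruSeq kit, per the labels' protocols. Read counts per feature were deposited by the authors, with the build mm9 and the tool DESeq named per the submitters' processing notes; the sources used here do not give the aligner, the counting tool or the annotation. The length-scaled signal deposited under an FPKM heading equals the count per kb divided by 50 in every library and served only to obtain exon lengths. The log2 fold change and p-value are those of the authors' deposited table; the p-value was read as adjusted, since 17567 of 21778 values are shared. Coordinates were read as 1-based, since 6231 spans match GENCODE vM21 that way and 231 the other way.

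Normalised counts are counts over median-of-ratios size factors (0.948, 0.952, 1.045 and 1.061), using Python 3.11.15, with TMM factors from edgeR 4.0.16 as an alternative. The knockout mean was multiplied by 2 to the power 0.404, the median offset between the authors' log2 fold change and the raw ratio over 11938 features (SD 0.003). Of the 30 columns, 8 per-library columns with no sample here were not used. Size factors and folds were tested on simulated data. No test between arms was run; calls use an adjusted p under 0.05, and where the text says rose or fell it means such a call. Spread within a library pair is somewhat above counting noise and far below that between pairs. Whether the pairs are technical or biological replicates is not known, since the labels say technical and the series design speaks of duplicates. Members, lists and the naming rule (all members; called genes of each list, else up to 3 with the highest count; the 3 nearest genes per member) were chosen with earlier results of these data known. Spry3 and Hras had no match by name, the latter listed as Hras1. Genes named beyond the rule (Dusp16, Spry4, Spred3, Ccnd1, Etv4, Etv5, Mcl1, Epor and the other markers named singly) were picked after their values were seen. Some items are not reported here.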

Additional observations from a re-analysis of the deposited data

Results flagged for a closer look

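Dusp10 had 1 wild-type library away from the other 3: library 1 stood at 284 normalised counts and the others at 232 to 241, so that the gap to the nearest library made up 0.832 of the whole range, past Dixon's critical value for 4 samples. Chance flags about 1 in 20 groups of independent samples. The 4 libraries are counted as 2 samples elsewhere, so this describes libraries and is no test on independent samples. Libraries 1 and 2 differed 1.18-fold.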

How the results depend on the processing

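The number of genes at least 2-fold higher in libraries 3 and 4 stayed at 5 with TMM factors, with total-count scaling, with 10 counts added and without any single library (5 to 5), and was 2 at a 4-fold threshold. The median log2 ratio of the knockout mean to wild type, 0.93, was 0.91 to 0.95 without any single library, 0.59 with total-count scaling of the knockout mean and 1.41 against libraries 1 and 2 alone. The median wild-type level per kb was 821 to 855 without any single library. The number of genes with the knockout mean above both pairs, an alternative chosen after seeing the data, was 8 without any single library (8 to 8). Dropping 1 library leaves the other of its pair, which is nearly the same, so these drops could hardly change a result. Called members numbered 2 at an adjusted p under 0.05 and 0 under 0.01, and called pathway genes outside the members 12 and 7. Of 170 alternatives for single genes, many of them drops of a single library, 2 reversed direction. Both were against libraries 1 and 2 alone: Dusp1 to 1.52 and Spry1 to 0.017. These follow from the choice of reference pair. No paired analysis was possible because the wild-type group is the only one with samples here. At these depths counting error is small beside the pair difference for most members. It is not for Dusp10, at -0.15 with a counting interval of -0.33 to 0.03. The number of independent animals limits what the comparison can show.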
